A study of Mus musculus with 4 samples.

Results

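NADPH oxidases of the gut epithelium were examined in sorted intestinal stem cells with and without CREPT, a protein that binds RNA polymerase II and is encoded by Rprd1b. The 7 genes, found by symbol among the 18436 of the table, were chosen by their function and by the difference between genotypes in these same values: Nox1 with its partners Noxo1, Noxa1, Cyba and Rac1, and Duox2 with its maturation factor Duoxa2. All 7 passed the filter on low values (mean FPKM of 0.5 or more across mice), as did 12621 genes in all. The 2 Lgr5-WT mice carried Lgr5-EGFP-IRES-CreERT2, a knock-in that drives GFP and a tamoxifen-inducible Cre from the Lgr5 gene, and the 2 Lgr5-CREPTKO mice carried the same knock-in together with CREPT fl/fl alleles. Mice of both genotypes were of C57BL/6 background, were given 1 mg of tamoxifen daily on 5 days, and had their Lgr5-GFP high crypt cells sorted on day 7. Mice of either sex aged 6 to 8 weeks were used across the study, with no age for single mice. By the study's account the knock-in is silent in a small share of adult crypts, so the sort takes only crypts that express GFP. RNA was sequenced from each mouse separately, and levels are given as FPKM, fragments per kilobase of transcript and sequencing depth.

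NADPH oxidases move electrons from NADPH across a membrane onto oxygen and so make superoxide or hydrogen peroxide on purpose. NOX1 is the catalytic subunit of the epithelial enzyme and is best known from the colon. It sits in the membrane with p22phox (Cyba) and becomes active when the organizer NOXO1, the activator NOXA1 and GTP-bound RAC1 assemble on it. DUOX2 needs none of these partners. It makes hydrogen peroxide at the apical surface, is switched on by calcium, and has to be carried out of the endoplasmic reticulum by DUOXA2; it is part of the defence of the gut against microbes.

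RefSeq promoter windows were used for 6 of the 7 genes (Rac1 was not matched) on GRCm38.p6, the assembly named in the study's methods. The windows of Nox1, the gene with the lowest level in Lgr5-CREPTKO cells relative to Lgr5-WT cells, and of Duoxa2, whose window faces Duox2 on the opposite strand and partly lies within the longest RefSeq extent of Duox2, are shown; neither overlaps an exon in GENCODE M21. The Nox1 window precedes an internal start at 134111854, inside the full RefSeq extent of the gene. Each line gives the 250 bases before the start site, 5′ to 3′ on the gene's own strand, at chrX:134111855-134112104 (minus strand) for Nox1 and chr2:122298650-122298899 (plus strand) for Duoxa2. Capitals mark matches, on either strand, to the letters TGATAA (bound by GATA factors), TTTATG (bound by CDX factors), TATAAA (the TATA box) and GGGCGG (the GC box).
Nox1: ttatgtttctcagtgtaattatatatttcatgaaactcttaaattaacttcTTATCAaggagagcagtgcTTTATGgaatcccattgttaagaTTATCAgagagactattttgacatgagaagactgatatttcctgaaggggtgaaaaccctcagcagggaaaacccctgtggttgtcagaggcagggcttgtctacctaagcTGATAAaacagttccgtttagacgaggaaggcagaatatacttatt
Duoxa2: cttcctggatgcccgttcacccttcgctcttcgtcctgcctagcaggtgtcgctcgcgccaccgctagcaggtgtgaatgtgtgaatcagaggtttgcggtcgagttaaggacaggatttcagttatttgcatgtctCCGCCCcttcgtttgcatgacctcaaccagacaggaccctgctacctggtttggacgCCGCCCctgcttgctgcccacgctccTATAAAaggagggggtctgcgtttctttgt
The Nox1 window held 3 matches to TGATAA, at 199, 157 and 46 bases before the start, and 1 to TTTATG at 180 bases. TGATAA occurs in 7.94% and TTTATG in 10.8% of all 32851 windows of this length. The Duoxa2 window held TATAAA at 30 bases before the start and GGGCGG at 113 and 56 bases, and these occur in 12.4% and 32.7% of all windows. TCAAAG (the TCF/LEF core) and TTCNNNGAA (bound by STAT factors) were searched as well and were in neither window; they occur in 13.8% and 7.02% of all windows. The share of G and C was 38.0% in the Nox1 window, 56.4% in that of Duoxa2 and 80.0% in that of Noxo1, against a median of 52.4% over all windows. A match describes the letters and is not a binding site.

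The sorted cells carried the RNA of crypt stem cells. Lgr5 was between 37.7 and 60.1 FPKM and Olfm4 between 4932 and 5351 FPKM over the 4 mice. In both Lgr5-CREPTKO mice 8 of 8 stem cell genes were above both Lgr5-WT mice, where 25.6% of all genes tested were. This was the opposite direction to 6 of the oxidase genes. The stem cell genes had a median log2 fold change of 0.29, and none was past the threshold. The fibroblast and vessel list of 8 genes summed to between 0.24 and 0.69 FPKM. Rprd1b was 17.7 and 18.1 FPKM in the Lgr5-WT mice against 6.65 and 7.36 FPKM in the Lgr5-CREPTKO mice. The log2 fold change was -1.29 (limma, adjusted p = 0.0280, standard error 0.0946). A single exon is floxed, and reads on the other exons remain countable. The part of such reads in the remaining level was not tested. The libraries were of similar depth by the step that 1 read makes: among 182 genes with a single annotated transcript of similar length, the most common low value was 0.05 or 0.06 FPKM in every library. In bulk RNA, fewer cells of one type and less RNA per cell cannot be told apart, and this holds for every difference below.

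Of the 7 oxidase genes, 6 were lower in both Lgr5-CREPTKO mice than in both Lgr5-WT mice, and Rac1 was higher in both. The gene set was put together with this comparison already known, so the differences are given as a description and no p is attached to them. Noxo1 and Noxa1 were the 2 of the 7 past the threshold over all genes (limma's moderated test, adjusted p under 0.05 with a log2 fold change beyond 1 in size). Of the 12621 genes, 1.14% passed it, 1.01% as lower and 0.127% as higher. Values that did not overlap between genotypes were common, with 31% of all genes lower and 25.6% higher in that sense. The log2 fold changes ran from -3.12 for Nox1 to 0.15 for Rac1, with a median of -1.21 against -0.01 over all genes tested. They are on the log2(FPKM + 0.5) scale, where low genes differ by less than their FPKM do. With any 1 of the 4 mice left out, or without the filter on low values, 0 genes of the whole table passed by limma, and without the intensity trend 4 did and no member, so the 2 calls rest on all 4 libraries and on these settings. With libraries scaled to an equal sum Noxa1 lost its call. Unadjusted p was under 0.05 for 2250 genes lower and 1320 higher without the filter. Without small RNA genes in the table, or with the replicate number as a block, 4 of the 7 passed, Nox1 and Duox2 in addition.

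**Figure D1:**
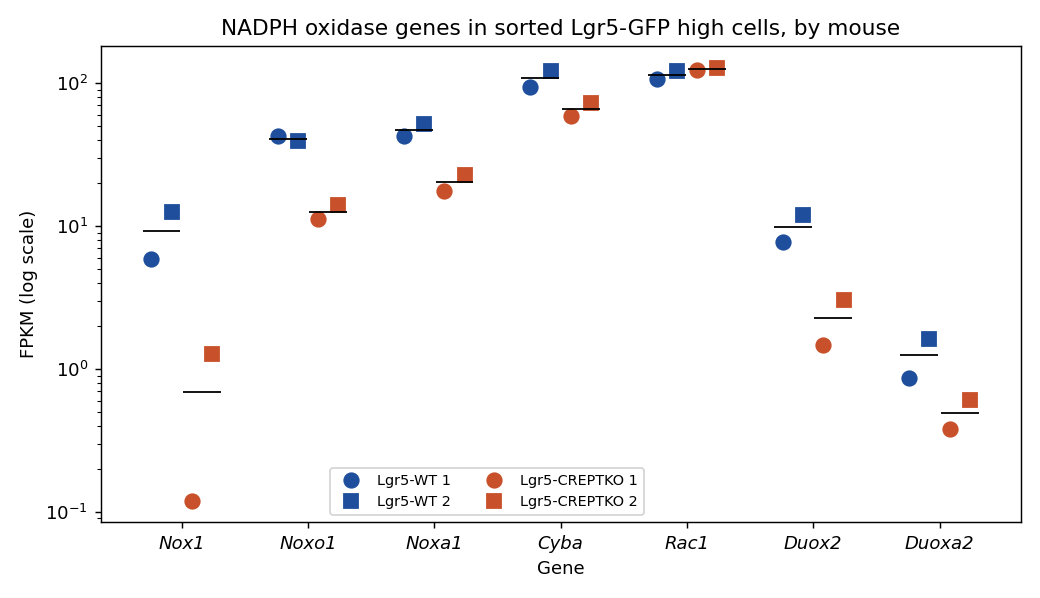
FPKM on a log scale for the 7 genes, 1 point per mouse (blue Lgr5-WT, orange Lgr5-CREPTKO; circles mouse 1, squares mouse 2), with a line at the mean of each genotype. The orange points lie below the blue points for every gene except Rac1, and the Nox1 values of the Lgr5-CREPTKO mice, 0.12 and 1.27 FPKM, lie farthest apart.

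Nox1, the catalytic subunit, showed the widest spread. It was 5.87 and 12.5 FPKM in the Lgr5-WT mice against 0.12 and 1.27 FPKM in the Lgr5-CREPTKO mice. The genotypes did not overlap, yet the mice of each genotype stood apart from each other by 1.03 (Lgr5-WT) and 1.51 (Lgr5-CREPTKO) on the log2 scale. The mean of 9.20 ± 4.70 FPKM (SD, n = 2) in Lgr5-WT cells stood against 0.695 ± 0.813 FPKM (SD, n = 2) in Lgr5-CREPTKO cells, or 7.56% of it, and the log2 fold change was -3.12 (standard error 0.596). Of the 12621 genes tested, 2 had a lower one. The study places Nox1 among its Paneth cell genes and reported it as decreased in these same Lgr5-CREPTKO cells. It also reported a decrease in crypts of mice with CREPT deleted in the whole intestinal epithelium, by RNA-seq and by quantitative RT-PCR. The value of 0.12 FPKM is worth about 5.17 reads over the longest transcript of 2563 bases, so its counting error is wide. Nox1 lies on chromosome X (134086421 to 134137711), and Xist, the RNA of the inactive X chromosome, was between 93.7 and 169.2 FPKM in all 4 mice, with Ddx3y, a Y-linked gene, at 0.02 FPKM or below.

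The 2 soluble partners were lower, with less spread between mice. Noxo1, the organizer that tethers the complex to membrane lipids and p22phox, was 42.5 and 39.5 FPKM in the Lgr5-WT mice against 11.2 and 14.0 FPKM in the Lgr5-CREPTKO mice. The genotypes did not overlap. Its level in Lgr5-CREPTKO cells was 30.7% of that in Lgr5-WT cells, and its standard error of 0.125 was the smallest of the 6 genes that were lower. Noxa1, the activator that bridges NOX1 and RAC1, was 43.1 and 51.7 FPKM against 17.5 and 23.0 FPKM. The means were 47.4 ± 6.09 FPKM (SD, n = 2) and 20.3 ± 3.85 FPKM (SD, n = 2), and the log2 fold change was -1.21 with a standard error of 0.161. In the Lgr5-WT mice both genes were at percentiles from 88.4 to 91.5 of the table, whereas Nox1 itself was at percentiles 53.2 and 67.1.

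The membrane partner and the GTPase, both of which also serve other oxidases or other pathways, differed least. Cyba, which encodes p22phox, was 94.6 and 122.8 FPKM in the Lgr5-WT mice against 58.8 and 72.6 FPKM in the Lgr5-CREPTKO mice. The genotypes did not overlap, and the log2 fold change of -0.72 (standard error 0.165) was under the size that the threshold asks for. Rac1, the GTPase, was 107.2 and 122.4 FPKM in the Lgr5-WT mice against 124.8 and 128.9 FPKM in the Lgr5-CREPTKO mice. Its log2 fold change of 0.15 (standard error 0.0881) was below the gap of 0.19 between the Lgr5-WT mice, and it was the only member of the 7 with a value above 0.

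Duox2 and Duoxa2 lie head to head on chromosome 2, Duox2 from 122279246 to 122298740 and Duoxa2 from 122298900 to 122302885. Duox2 was 7.74 and 11.9 FPKM in the Lgr5-WT mice against 1.48 and 3.05 FPKM in the Lgr5-CREPTKO mice. The means of 9.83 ± 2.96 FPKM (SD, n = 2) and 2.27 ± 1.11 FPKM (SD, n = 2) differed by a log2 fold change of -1.93 (standard error 0.344), and 31 of the 12621 genes had a lower one. Duoxa2 was low throughout, at 0.86 and 1.63 FPKM against 0.38 and 0.61 FPKM. These values are worth about 27.9 and 44.6 reads in the Lgr5-WT libraries and 10.2 and 16.9 reads in the Lgr5-CREPTKO libraries, and the log2 fold change of -0.78 had a standard error of 0.314. The lowest Lgr5-WT mouse and the highest Lgr5-CREPTKO mouse of this gene differed by less than the 2 Lgr5-WT mice did.

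**Figure D2:**
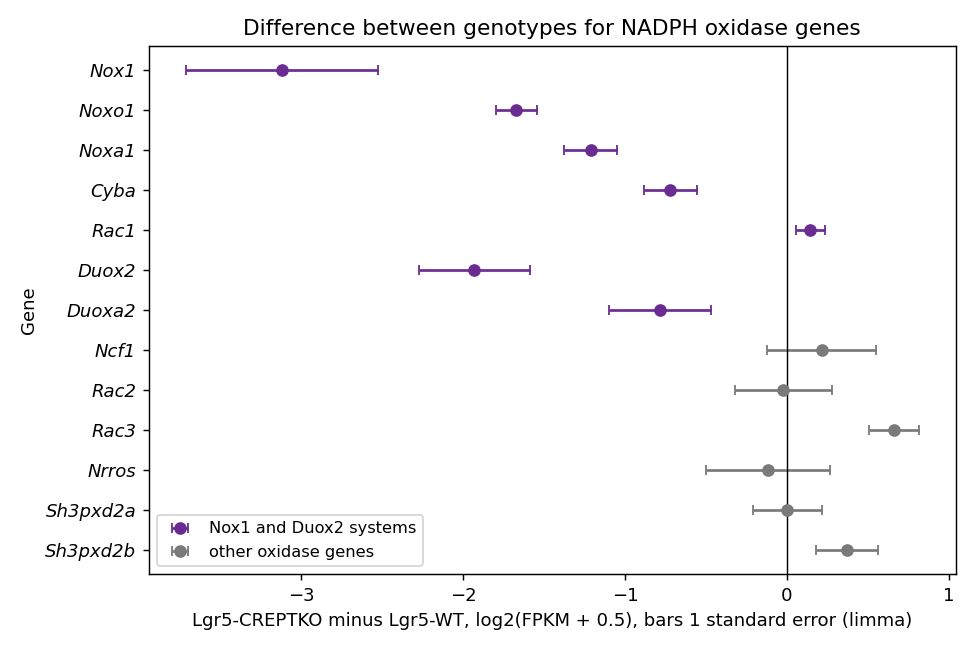
Log2(FPKM + 0.5) in Lgr5-CREPTKO minus Lgr5-WT cells, with bars of 1 standard error from limma, for the 7 genes (purple) and 6 other oxidase genes that passed the filter (grey). Nox1 lies at -3.12 and Duox2 at -1.93, whereas the grey points lie between -0.11 and 0.66.

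FPKM divides by length, so levels of different genes in one library can be set side by side. By mean over the 4 mice the order was Rac1, Cyba, Noxa1, Noxo1, Duox2, Nox1 and Duoxa2. In the Lgr5-WT mice the values of Rac1 overlapped those of Cyba and the values of Duox2 overlapped those of Nox1, so these neighbours did not differ beyond their spread there. In the Lgr5-CREPTKO mice the values of Duoxa2 lay between those of Nox1, and no other neighbours of this order overlapped. Within each library the log2 ratio of Noxo1 to Nox1 was 2.76 and 1.62 in the Lgr5-WT mice and 4.24 and 3.03 in the Lgr5-CREPTKO mice, so the organizer exceeded the catalytic subunit everywhere and by more in Lgr5-CREPTKO cells. The ratio of Nox1 to Cyba was -3.90 and -3.24 against -6.58 and -5.37. That of Noxo1 to Noxa1 differed least in size, at -0.02 and -0.38 against -0.62 and -0.70, yet did not overlap between genotypes. Duoxa2 to Duox2 was -2.60 and -2.54 in the Lgr5-WT mice against -1.17 and -1.68 in the Lgr5-CREPTKO mice. These ratios hold 0.5 FPKM in both terms, which bounds those of the low genes Nox1 and Duoxa2.

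Several of these genes share sequence with neighbours on the other strand, and whether the counting used strand is not given in the sources used here. Tbl3 overlaps Noxo1 over 2581 bases and was 21.9 and 15.5 FPKM in the Lgr5-WT mice against 10.03 and 11.04 FPKM in the Lgr5-CREPTKO mice (log2 fold change -0.78; limma, adjusted p = 0.0846). Entpd8 overlaps the last 50 bases of Noxa1 and was 35.5 and 35.1 FPKM against 15.3 and 20.0 FPKM (log2 fold change -0.99; limma, adjusted p = 0.0415). If the counting ignored strand, reads of these pairs cannot be told apart where they overlap. Gfer, which begins 77 bases from Noxo1 on the opposite strand, was 28.3 and 29.3 FPKM against 22.5 and 25.9 FPKM (log2 fold change -0.25), a smaller difference than that of Noxo1. Mvd, which lies 670 bases from Cyba on the same strand, was 13.75 and 14.44 FPKM against 7.19 and 11.07 FPKM. Its log2 fold change was -0.63 (limma, adjusted p = 0.152), beside -0.72 for Cyba. Cstf2, which overlaps 399 bases of Nox1, was between 22.0 and 25.3 FPKM in all mice. Daglb overlaps Rac1 over 2309 bases and was 8.35 and 7.93 FPKM against 6.56 and 6.84 FPKM. Duoxa1 overlaps Duoxa2 over 695 bases and was at 0.07 FPKM or below. The same limit on reads holds for these overlaps.

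The order of the mice within a genotype was shared by most members. Lgr5-CREPTKO mouse 2 was above Lgr5-CREPTKO mouse 1 in 7 of 7 genes, where 53.4% of all genes tested were. Lgr5-WT mouse 2 was above Lgr5-WT mouse 1 in 6 of 7, with Noxo1 the exception, where 49.6% of all genes tested were. Marker lists of other cells were read in the same libraries. The enterocyte list of 9 genes summed to 661.5 and 800.6 FPKM in the Lgr5-WT mice against 476.0 and 739.5 FPKM in the Lgr5-CREPTKO mice, with mouse 2 above mouse 1 in 9 of 9 genes of either genotype. The Paneth list of 9 genes summed to 1481 and 1093 FPKM in the Lgr5-WT mice against 878 and 2797 FPKM in the Lgr5-CREPTKO mice, with mouse 2 above mouse 1 in 9 of 9 genes of the Lgr5-CREPTKO mice and in 3 of 9 of the Lgr5-WT mice. The phagocyte and lymphocyte genes were higher in mouse 2 in 10 of 10 of the Lgr5-CREPTKO mice and 7 of 10 of the Lgr5-WT mice. Enteroendocrine genes were higher in mouse 2 in 8 of 10 in either genotype. Goblet genes were so in 10 of 10 in the Lgr5-WT mice and 5 of 10 in the Lgr5-CREPTKO mice. For tuft genes this was 8 of 8 and 1 of 8. The part of these cells in the values of Nox1 and Duox2 was not tested.

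**Figure D3:**
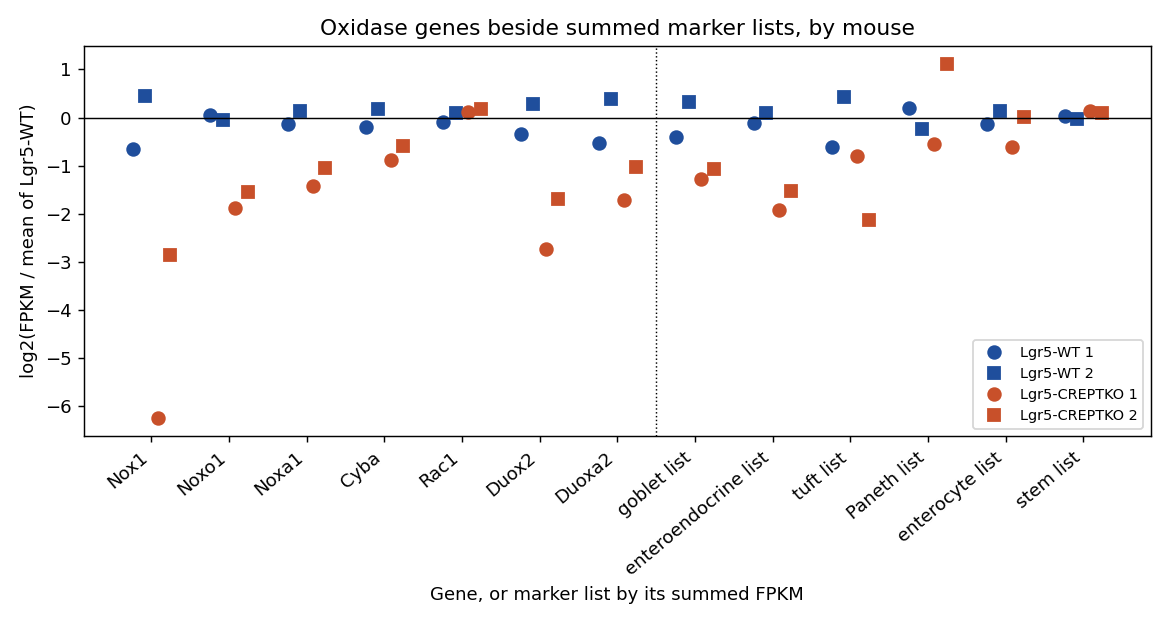
Log2 of FPKM over the mean of the Lgr5-WT mice for the 7 genes (left of the dotted line) and for the summed FPKM of 6 marker lists (right), 1 point per mouse, with colours and shapes as for the FPKM plot. Goblet, enteroendocrine and tuft sums lie lower in the Lgr5-CREPTKO mice, as 6 of the oxidase genes do, while the Paneth sum lies on both sides and the stem sums lie slightly above 0 in the Lgr5-CREPTKO mice.

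Markers of enteroendocrine, goblet and tuft cells were lower in the Lgr5-CREPTKO mice, as 6 of the oxidase genes were, whereas 8 of 9 Paneth genes had a log2 fold change above 0 with values that overlapped between genotypes. The enteroendocrine list of 10 genes summed to 198.2 and 229.3 FPKM in the Lgr5-WT mice against 56.0 and 74.4 FPKM in the Lgr5-CREPTKO mice, with 10 of 10 genes not overlapping. The goblet list of 10 genes summed to 1484 and 2475 FPKM against 817 and 947 FPKM, with 9 of 10 not overlapping. Of all genes tested, 31% were lower without overlap. The tuft list of 8 genes summed to 22.1 and 45.6 FPKM against 19.6 and 7.73 FPKM; here Lgr5-CREPTKO mouse 2 was the lower, the opposite of the oxidase genes. No marker of the goblet and enteroendocrine lists was at 0 in any library. Whether the oxidase genes were lower in the stem cells or through fewer secretory or other cells in the sort was not tested. Of phagocytes, which have an oxidase of their own, Adgre1 was at 0.02 FPKM or below and Csf1r at 0.30 FPKM or below in every library. Cd68 was 6.5 and 5.21 FPKM against 4.20 and 4.58 FPKM. Itgam was 2.04 and 2.25 FPKM against 1.28 and 1.53 FPKM. These were the 2 of the 10 phagocyte and lymphocyte genes that were lower in both Lgr5-CREPTKO mice than in both Lgr5-WT mice. Of the 5 genes of that list that were tested, 3 had a log2 fold change below 0 and 2 above. Tyrobp, 1 of those above, was 0.49 and 1.06 FPKM against 0.29 and 2.42 FPKM. The whole list summed to 10.8 and 11.6 FPKM in the Lgr5-WT mice against 6.30 and 13.6 FPKM in the Lgr5-CREPTKO mice.

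Regional markers were read because Nox1 and Duox2 are known from the distal gut. Gata4, a transcription factor of the proximal small intestine, was between 50.4 and 54.4 FPKM in all 4 mice. Pdx1, a transcription factor of the duodenum, was lower in both Lgr5-CREPTKO mice, at 7.98 and 7.73 FPKM against 4.21 and 5.81 FPKM (log2 fold change -0.62; limma, adjusted p = 0.114). The study counts Pdx1 among its enteroendocrine genes. Of the 6 genes of the proximal list, 3 had a log2 fold change below 0 and 3 above. The colon markers Hoxb13, Hoxd13 and Car1 were not analysed here. The proximal list of 6 genes summed to 161.8 and 250.4 FPKM in the Lgr5-WT mice against 150.3 and 197.6 FPKM in the Lgr5-CREPTKO mice, and the ileal list of 3 genes to 16.7 and 15.4 FPKM against 21.9 and 18.3 FPKM. Of the colon list, Car4, a carbonic anhydrase, was 13.9 and 10.9 FPKM against 20.1 and 20.9 FPKM, and Mptx1, a mucosal pentraxin, was 2.64 and 2.17 FPKM against 30.5 and 4.90 FPKM. Both were higher in both Lgr5-CREPTKO mice. The part of the sampled region in the values of Nox1 and Duox2 was not tested.

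The other genes of the oxidase family gave no call. Of 14 genes listed, Nox3 and Cybc1 were not analysed here, and 7 of the other 12 passed the filter, with 3 lower, 4 higher and a median log2 fold change of 0.00. The catalytic subunits other than Nox1 and Duox2 were near the floor of the table: Cybb, the phagocyte subunit, was between 0.03 and 0.20 FPKM, Nox4 between 0 and 0.01 FPKM and Duox1 between 0.02 and 0.06 FPKM. Duoxa1, the maturation factor of DUOX1, was at 0.04 and 0.07 FPKM in the Lgr5-WT mice and listed at 0 in the Lgr5-CREPTKO mice, and Ncf4 was listed at 0 in 3 libraries and at 0.16 FPKM in Lgr5-CREPTKO mouse 2. Ncf1, the phagocyte counterpart of Noxo1, was low, at 0.39 and 0.64 FPKM against 0.43 and 0.97 FPKM. Sh3pxd2a and Sh3pxd2b, which encode scaffold proteins related to NOXO1, had log2 fold changes of 0.00 and 0.37. Rac3, a close relative of Rac1, was 2.47 and 2.49 FPKM against 4.70 and 3.78 FPKM (log2 fold change 0.66; limma, adjusted p = 0.0881), and Rac2, the blood cell form, was at -0.02. Nrros, which limits the phagocyte oxidase, was at -0.11.

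**Figure D4:**
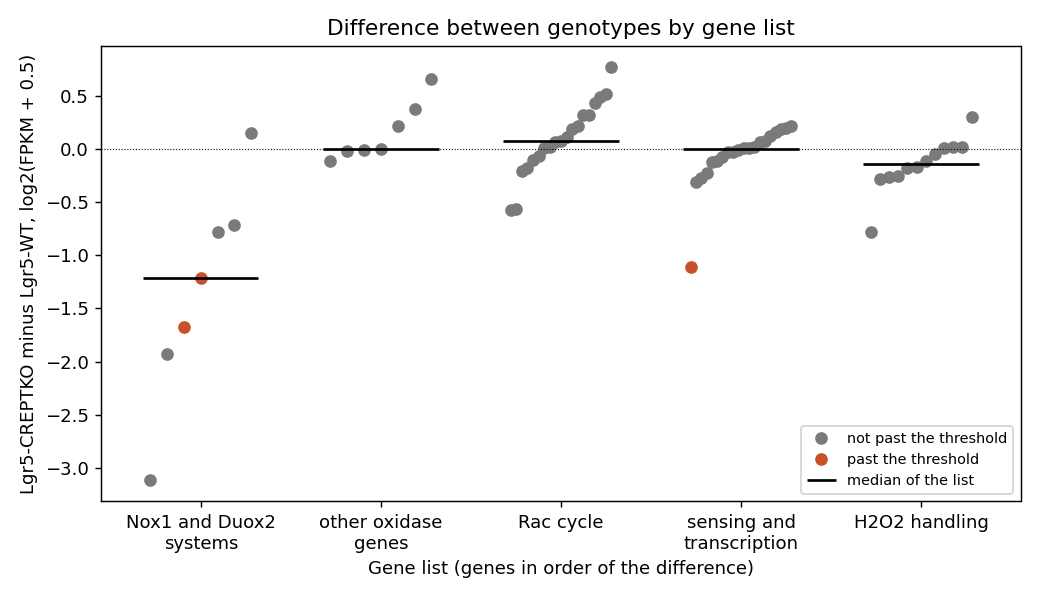
Log2(FPKM + 0.5) in Lgr5-CREPTKO minus Lgr5-WT cells for each tested gene of 5 lists, with the median of each list as a line and genes past the threshold in orange. The 7 oxidase genes have a median of -1.21, and the other lists have medians between -0.14 and 0.08.

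Genes around the oxidases were read from 3 more lists. Of 21 genes that load, release or follow Rac1, 19 were tested and none passed in either direction, with 6 lower, 13 higher and a median of 0.08. The most abundant were Rhoa and Cdc42, GTPases related to Rac1, with log2 fold changes of 0.01 and -0.11. The largest differences were those of Arhgdib, which holds small GTPases in the cytosol (0.78, adjusted p = 0.245), and of the Rac exchange factor Vav3 (-0.58, adjusted p = 0.0741), both by limma. Of 23 sensors, cytokine receptors and transcription factors of the epithelium, 20 were tested, 1 passed as lower and none as higher, with a median of 0.00. That gene was Ticam1, which encodes the adaptor TRIF of Toll-like receptor signalling; it was 10.8 and 12.5 FPKM in the Lgr5-WT mice against fell to 4.39 and 5.91 FPKM in the Lgr5-CREPTKO mice, and its log2 fold change was -1.11 (limma, adjusted p = 0.0460, standard error 0.167). It lost the call with any mouse left out, without the filter, without the trend and with the libraries scaled to an equal sum.

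Of 18 genes that make, remove or pass hydrogen peroxide, 12 were tested and none passed, with 8 lower, 4 higher and a median of -0.14. Gpx2, the glutathione peroxidase of the gut epithelium, had the highest mean over the 4 mice and the largest difference in size, at 480.0 and 638.1 FPKM in the Lgr5-WT mice against 288.3 and 357.3 FPKM in the Lgr5-CREPTKO mice (log2 fold change -0.79; limma, adjusted p = 0.0823). In the Lgr5-CREPTKO mice Sod1, which turns superoxide into hydrogen peroxide, was above it at 423.1 and 385.8 FPKM. Sod1 had a log2 fold change of -0.18, and Cat, which encodes catalase, was higher in both Lgr5-CREPTKO mice at 0.31 (limma, adjusted p = 0.0741).

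The genes whose profiles over the 4 mice lay nearest to those of the oxidases were found by the root-mean-square distance between log2 profiles, each centred on its own mean. For Noxo1 they were Fam132b (0.04), Bckdk (0.04), Ndufaf3 (0.07) and Slc25a10 (0.09). Bckdk, which encodes the kinase that restrains breakdown of branched-chain amino acids, was 31.82 and 28.02 FPKM in the Lgr5-WT mice against 8.57 and 10.4 FPKM in the Lgr5-CREPTKO mice. For Duox2 they were Cd177 (0.12), the neuropeptide gene Tac1 (0.17), 4930481A15Rik (0.18) and Syne4 (0.20). Nox1 had no neighbour as close. The nearest were Sst, the gene of the hormone somatostatin (0.40), Cdkn3 (0.52), Mir6999 (0.56) and the ghrelin gene Ghrl (0.56), and among the members Duox2 was nearest to it, at 0.66. These distances rest on 4 libraries, and they are dominated by the difference between genotypes.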

How the data were processed

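Lgr5-GFP high cells of 2 Lgr5-WT and 2 Lgr5-CREPTKO mice were compared. The authors deposited FPKM values, rounded to 2 decimals, with 1 column per mouse. By the study's methods, which name crypts and intestines, Bowtie2 placed reads on GRCm38.p6 transcripts and RSEM gave the levels; the submitters' processing notes also name HISAT. FPKM values carry no counts, so the study's count model could not be applied. Its thresholds, adjusted p below 0.05 and absolute log2 fold change above 1, were applied to limma 3.58.1 in R 4.3.3 (lmFit and eBayes with intensity trend) on log2(FPKM + 0.5) for genes averaging 0.5 FPKM or more, with Benjamini-Hochberg adjustment over all 12621 genes. No covariate was used. An exact permutation test of 2 mice against 2 cannot go below 0.333. The method was tested on simulated counts with a set spread between replicates, which says nothing about the spread between these mice. The mice are separate animals, and no pairing by the numbers 1 and 2 is stated in the sources used here.

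The members and the gene lists were chosen with earlier results of these data known. Named were the members, the other oxidase genes, genes of the surrounding lists past the threshold or otherwise those with the largest difference or highest level, marker genes and the nearest profiles; some listed genes are not reported here. Genes overlapping a member (Tbl3, Entpd8, Cstf2, Daglb), Gfer and Mvd were chosen after their values were seen, and Duoxa1 was already a listed gene. Coordinates and promoter windows are from RefSeq on GRCm38.p6, and overlaps, transcript lengths and gene starts from GENCODE M21 on the same assembly. Reads per value were estimated from the most common low value of single-transcript genes. Python 3.11.15 with pandas 2.3.3 was used for these steps. The sum of FPKM was between 468830 and 499327 per library. Pseudocount, filter, scaling, trend, replicate block, small RNA genes and single mice were varied.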

Additional observations from a re-analysis of the deposited data

How the results depend on the processing

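Each member kept its direction under every alternative that gave it a value; Duoxa2 gave none with the filter at 1 FPKM. The log2 fold change ranged from -3.98 to -2.36 for Nox1, -1.83 to -1.52 for Noxo1, -1.40 to -1.02 for Noxa1, -0.91 to -0.53 for Cyba, 0.05 to 0.24 for Rac1, -2.35 to -1.51 for Duox2 and -1.14 to -0.46 for Duoxa2. Calls depended on the setting. The 128 genes lower and 16 higher became 0 and 0 without the filter on low values (2250 and 1320 at an unadjusted p below 0.05), 4 and 0 without the intensity trend, and 84 and 11 with libraries scaled to a larger, equal sum, where 13634 genes passed the filter, the pseudocount weighed less and the median of all genes was 0.05 in place of -0.01. With each mouse left out in turn they were 0 to 0 in both directions, where a lone mouse is assumed to vary like the others (1170 to 1615 lower and 633 to 954 higher at an unadjusted p below 0.05). The cause was not tested. Calls among the 7 members, 2 as reported, were 0 without the filter, 0 without the trend, 1 (Noxo1) at the equal sum, 4 without small RNA genes, and 0 to 0 with each mouse left out. The 1 call among sensors and transcription factors was 0 without the filter, 0 without the trend, 0 at the equal sum, and 0 to 0 with each mouse left out.

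Rprd1b kept a log2 fold change of -1.29 without the filter (limma, adjusted p = 0.116) and without the trend (adjusted p = 0.0623), and was between -1.36 and -1.23 with each mouse left out, with adjusted p from 0.123 to 0.295. With a pseudocount of 0.1 in place of 0.5, the difference between genotypes in the log2 ratio of Noxo1 to Nox1 moved from 1.45 to 2.28 and that of Nox1 to Cyba from -2.40 to -3.26. With the replicate block, 101 genes were lower, 8 were higher and 4 members passed. Deviations of same-numbered mice from their genotype means had a correlation of -0.03 over all genes tested. This value cannot show whether some genes share an order by number, and the sources used here do not state a pairing. The block changed no call among the other oxidase, Rac, sensor and hydrogen peroxide genes. Low read numbers limit Nox1 in Lgr5-CREPTKO mouse 1 and Duoxa2 in every library.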
